A study of Mus musculus with 2 samples.

Results

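The mouse T cell receptor alpha locus on chromosome 14 holds the variable (V), joining (J) and constant (C) segments from which the alpha chain of the T cell receptor is assembled. All genes of GENCODE M21 whose symbol starts with Trav, Traj or Trac and whose gene type is a T cell receptor type were taken, which gave 189 of the 55536 genes in the tables. They comprised 108 V genes, 20 V pseudogenes, 51 J genes, 9 J pseudogenes and the constant region Trac. All of them lay on the plus strand of mm10, from the start of Trav1 at position 52427928 to the end of Trac at position 54224206.

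Polyadenylated RNA was sequenced from primary inflammation-experienced regulatory T cells of male mice aged 7 weeks, which the labels trace to activated regulatory T cells. Such cells dampen immune responses and are defined by Foxp3, a transcription factor. Technical replicates 1 and 2 of 1 biological replicate were labelled, here library 1 and library 2, and no treatment, allele or strain was named. The design therefore holds 1 group and no contrast between conditions, and each SD (n = 2) and each test below measures a difference between these libraries of 1 biosample, not spread between animals.

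As background, an alpha chain gene is assembled in the thymus when the RAG recombinase cuts beside a V and a J segment and end joining repairs the break, and splicing then joins the J segment to Trac. Later rearrangements on the same chromosome replace the first one with a V farther from Trac and a J nearer to it. A conventional T cell population therefore carries many V and J segments, and RNA from bulk cells gives their summed use. Symbols with d or n (Trav7d-4, Trav7n-4) mark copies of V segments in duplicated stretches of the locus, and symbols with dv mark V segments that the delta chain can also use.

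The libraries summed to 26593267 (library 1) and 22036331 (library 2) expected counts. An expected count is the estimated number of reads of a gene, with reads that match several genes shared among them, and CPM is that count after scaling the libraries to a common total. TPM divides by the effective length, which here was the transcript length minus 49 bases, the number of positions at which a window of 50 bases can start. A J gene of 55 to 66 bases thus had 6 to 17 such positions. At an effective length of 8, 1 count was worth 7.53 TPM in library 1 and 9.21 TPM in library 2, against 0.0801 for Trac in library 1. Levels of J segments are for this reason given as counts beside TPM.

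The J segments shown here, read from the GENCODE M21 transcripts with mm10 positions on the plus strand, are those with the most counts (Traj27, Traj18, Traj22), the J of the invariant receptor of MAIT cells (Traj33), and 3 with no count in either library (Traj46, Traj25, Traj14). Capitals mark the motif TTNGGNNNNGG, the coding letters of the phenylalanine-glycine motif that J segments carry.
Traj27 (chr14:54192303-54192361): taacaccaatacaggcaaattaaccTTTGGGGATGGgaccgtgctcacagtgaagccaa
Traj18 (chr14:54200777-54200842): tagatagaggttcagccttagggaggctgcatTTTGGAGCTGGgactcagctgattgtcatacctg
Traj22 (chr14:54197248-54197307): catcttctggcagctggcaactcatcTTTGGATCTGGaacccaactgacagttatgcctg
Traj33 (chr14:54185358-54185414): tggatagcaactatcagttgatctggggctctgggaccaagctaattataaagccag
Traj46 (chr14:54172336-54172398): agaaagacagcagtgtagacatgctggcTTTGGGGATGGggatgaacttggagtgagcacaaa
Traj25 (chr14:54194815-54194871): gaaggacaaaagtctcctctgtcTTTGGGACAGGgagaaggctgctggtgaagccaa
Traj14 (chr14:54205111-54205144): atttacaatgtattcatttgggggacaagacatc

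The motif was found on the sense strand of 44 of 51 J genes and of 2 of 9 J pseudogenes, and on the reverse strand of none of these 60 segments. Among 141515 GENCODE M21 transcripts, 1.46% held it in their first 60 bases. The J genes without these letters were Traj59, Traj41, Traj33, Traj29, Traj20, Traj19 and Traj3. Together they carried 36 counts in library 1 and 27 in library 2. Traj46 and Traj25, which hold the motif, had 0 counts in both libraries, as did Traj41, which does not. The median J gene with the motif had 9 counts in each library, and the median J gene without it had 2 and 1. The 7 genes without it were mixed, with 13 and 5 counts for Traj33, 11 and 14 for Traj19 and 8 and 6 for Traj20. Traj59, Traj41, Traj29 and Traj3 had at most 2 in either library.

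Trac encodes the constant part of the alpha chain, which anchors it in the membrane and pairs with the beta chain, and it is present in every productive alpha transcript. Its first 90 bases, to which the J segment is spliced, read as follows.
Trac (chr14:54220521-54220610): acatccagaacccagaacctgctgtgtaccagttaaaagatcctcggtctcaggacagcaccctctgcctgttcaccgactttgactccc

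Trac (ENSMUSG00000076928.5, chromosome 14, 54220521 to 54224206) held 36905 counts in library 1 and 29736 in library 2, or TPM values of 2957 and 2903 (2929.9 ± 38.5, SD, n = 2). The libraries lay within a few percent of each other, and Trac was the most abundant member in both. The log2 ratio of library 2 over library 1 was -0.04, and the exact binomial test, with Benjamini-Hochberg adjustment over all 24253 genes that had at least 10 counts, gave an adjusted p of 0.000629. At this depth the test called a difference of 1.03-fold, and the ratio had the opposite sign, 0.14, in the second set of counts that the authors deposited (adjusted p = 0.036, exact binomial test). Its shorter transcript Trac-201 (413 bases) took 25.7% of Trac in library 1 and 25.1% in library 2, per the authors' estimate. The longer Trac-202 (935 bases) took 74.3% and 74.9%.

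All members together held 0.177% of the counts of library 1 (95% Wilson interval 0.176 to 0.179) and 0.173% of library 2 (0.171 to 0.175). Trac took 78.2% of the members' counts in library 1 and 78.0% in library 2. The 128 V segments took 20.5% (20.2 to 20.9) and 20.7% (20.3 to 21.1), from 9685 and 7886 counts. The 60 J segments took 1.23% (1.13 to 1.33) and 1.26% (1.15 to 1.37), from 578 and 479 counts. The intervals of the V and of the J share overlapped between the libraries. These intervals take in counting error alone, since PCR duplicates are not separate molecules.

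Per effective length the order was different. Summed V segments reached TPM values of 1832 and 1853 in libraries 1 and 2 (1843 ± 15.1, SD, n = 2), which was 0.620 and 0.639 of the TPM of Trac. Summed J segments reached a TPM of 3074 and 3062 (3068 ± 8.41, SD, n = 2), which was 1.04 and 1.05 of Trac. J segments, which hold the fewest counts, thus stood beside Trac once length was divided out, and V segments stood below both. The J value depends on effective lengths of 17 bases or less in the J genes. The beta locus, shown for scale, had a V TPM of 2308 and 2343, a J TPM of 1606 and 1184, and a TPM of 5360 and 5346 over both constant regions.

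**Figure D1:**
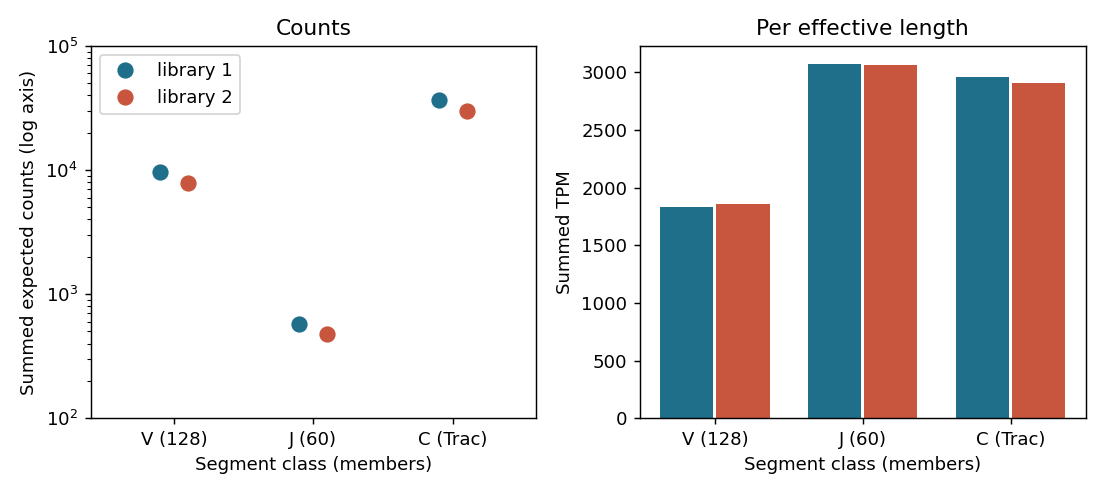
Summed expected counts (left, log axis) and summed TPM (right, linear axis from 0) of the V, J and C segments in library 1 and library 2, 1 point or bar per library. Counts fall from C to V to J, whereas the TPM of J (3074 and 3062) stands beside that of C (2957 and 2903).

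V segments encode most of the part of the alpha chain that touches the peptide and its presenting molecule. They are grouped into families by the number after Trav. Of 23 families, Trav7 held the most counts, with 2036 in library 1 and 1244 in library 2, or 21.02% (20.2 to 21.8) and 15.8% (15.0 to 16.6) of V counts. Trav14 followed with 16.7% (15.9 to 17.4) and 14.3% (13.6 to 15.1). Trav9 had 11.9% (11.3 to 12.6) and 12.6% (11.9 to 13.3). The top 4 families of each library took 58.5% of V counts in library 1 and 51.7% in library 2. At the other end, Trav18 had 0 counts in both libraries, which allows up to 3 counts in each, and Trav23, Trav20 and Trav22 had 0, 0 and 8 counts in library 1 and 3, 6 and 2 in library 2.

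**Figure D2:**
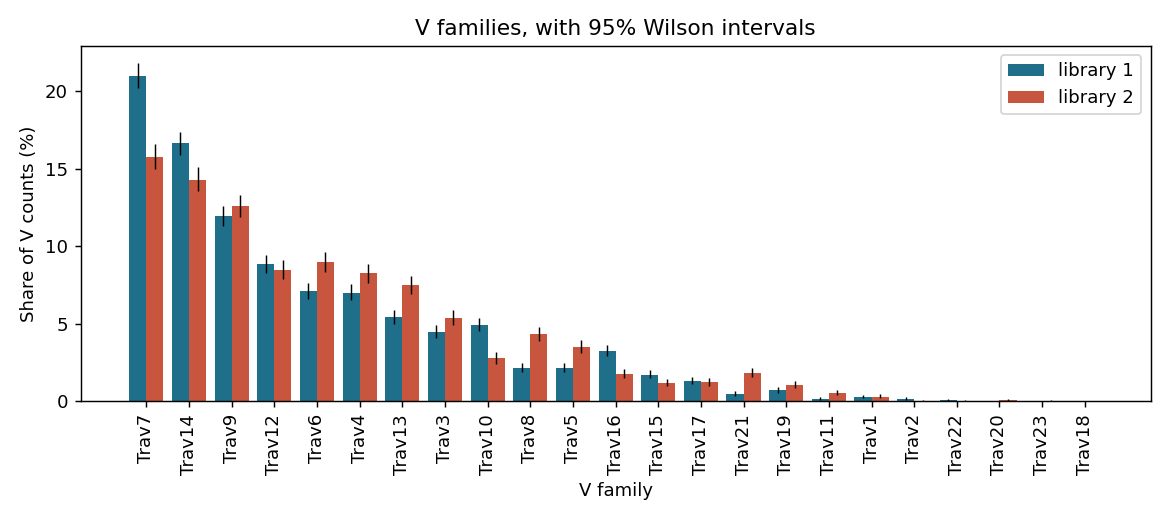
Share of V counts (%, linear axis from 0) of each of the 23 V families in library 1 and library 2, with 95% Wilson intervals for counting error. Trav7 and Trav14 lead in both libraries, with 21.02% and 16.7% in library 1 and 15.8% and 14.3% in library 2.

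Family shares ranked alike in the libraries (Spearman's rho 0.96 across 23 families, a description over families that share the same libraries). Their sizes nevertheless differed by more than counting error. Of 20 families with at least 10 counts, 9 were called higher in library 2 and 6 higher in library 1 by the exact binomial test on family sums, with adjusted p below 0.05. Over all genes tested, 46.4% were called higher in library 2 and 23.9% higher in library 1, 70.3% together, so a called difference was the common case in this pair of libraries. Families called at 2-fold or more were Trav2 (17 and 3 counts), Trav11 (15 and 42) and Trav21 (47 and 144). Trav7 was 1.36-fold lower in library 2 (log2 ratio -0.44, adjusted p = 1.21e-16), and Trav8 was 1.98-fold higher with 209 and 343 counts (log2 ratio 0.98, adjusted p = 2.09e-14).

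Among single V segments, as the expected counts placed reads among copies, Trav7d-2 had the highest level. It had 656 counts in library 1 and 391 in library 2 and a TPM of 119 ± 26.4 (SD, n = 2). Trav7-4 followed with 562 and 356 counts and a TPM of 74.7 ± 13.4. Trav9-1 had 316 and 332 counts (TPM 62.3 ± 11.0), the only one of these 3 with more counts in the smaller library. Trav14n-3 had 149 and 310 counts (TPM 59.4 ± 36.5), and its libraries stood far apart. Trav12n-3 (255 and 269 counts, TPM 57.9 ± 10.5) and Trav3-3 (207 and 155 counts, TPM 46.0 ± 5.87) varied less. Of the 304 windows of Trav12n-3, however, 303 are shared, and its copy Trav12d-3 was given 0 and 0.01 counts. The authors' posterior SD for Trav12n-3 was 43.7 and 53.7 counts, so its level cannot be told from that of the pair. Trav14-2 had 326 and 107 counts (TPM 47.7 ± 27.8), high in library 1 and low in library 2. Trav4-4-dv10 had 126 and 231 counts (TPM 39.6 ± 21.4). Trav12-2 (239 and 156 counts) and Trav14d-1 (198 and 139 counts) closed the 10 segments with the highest mean TPM, at 34.4 ± 5.43 and 34.2 ± 4.20. Trav14n-1, which has no window to tell it from Trav14d-1, was given the same values and ties with it for that place. Neighbours in this order from Trav7-4 downwards differed by less than the SD of at least 1 of the pair. No segment held more than 6.78% of V counts in library 1 or 4.96% in library 2, and the 10 with the most counts took 34.8% and 31.7%, with 5 in common.

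Detection covered most of the V genes. With a TPM of 1 or more required of each library, 92 of 128 V segments were detected, 89 of the 108 genes and 3 of the 20 pseudogenes, where 24.7% of all 55536 genes passed. The V pseudogenes together held 58.1 counts in library 1 and 94.5 in library 2. With 10 V segments at 0 in both libraries, 27 were at 0 in library 1 and 14 in library 2. A listed 0 leaves room for up to 3 counts, or 0.113 CPM in library 1 and 0.136 CPM in library 2.

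Counts of single V segments need care because many are near-identical copies. Over their last 250 bases, 43 V segments had an identical copy among the V segments and 78 had one of at least 98% identity. No window of 50 bases was their own in 42 V segments, which held 25.1% of V counts in library 1 and 23.6% in library 2. Only 10 V segments shared no window with another gene. They were Trav1, Trav2, Trav5-1, Trav17, Trav18, Trav19, Trav20, Trav21-dv12, Trav22 and Trav23, and together held 3.17% and 5.15% of V counts. All windows of the J segments and of Trac were their own. The last 120 bases of some close copies, with capitals at the positions where the shown copies differ, make the limit visible. In the Trav7-4 group the copies differ at 1 of these positions, though 148 of the 292 windows of Trav7n-4 were its own.
Trav7-4 (chr14:53461619-53461738): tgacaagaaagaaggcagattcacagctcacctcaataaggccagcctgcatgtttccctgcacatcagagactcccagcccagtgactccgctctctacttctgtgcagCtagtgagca
Trav7d-4 (chr14:52770273-52770392): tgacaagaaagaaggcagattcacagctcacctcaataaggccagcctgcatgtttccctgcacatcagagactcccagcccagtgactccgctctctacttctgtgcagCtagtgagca
Trav7n-4 (chr14:53091756-53091875): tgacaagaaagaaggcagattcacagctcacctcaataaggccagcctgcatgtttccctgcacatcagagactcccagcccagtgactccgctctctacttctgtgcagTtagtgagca

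Trav6-3 and Trav6d-3 also differ at 1 of their last 120 bases.
Trav6-3 (chr14:53430258-53430377): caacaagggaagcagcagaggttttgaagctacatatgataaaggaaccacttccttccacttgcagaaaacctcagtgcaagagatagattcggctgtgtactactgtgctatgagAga
Trav6d-3 (chr14:52726800-52726919): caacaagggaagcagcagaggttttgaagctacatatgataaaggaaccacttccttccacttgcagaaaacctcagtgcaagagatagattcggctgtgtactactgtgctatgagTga

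The expected counts placed all reads of this pair on Trav6-3 in library 1 (48 counts, Trav6d-3 0) and all of them on Trav6d-3 in library 2 (65 counts, Trav6-3 0). Their sum was 48 and 65 counts, a 1.63-fold difference per library size (adjusted p = 0.0162 in the exact binomial test), against bounds of at least 13.3-fold for Trav6-3 and at least 26.1-fold for Trav6d-3 taken singly with 3 counts in place of 0. The authors' second set of counts listed 8 and 7 for Trav6-3 and 3 and 2 for Trav6d-3. The switch between the copies was thus not seen there. Trav7d-2 and Trav7-2 form a like pair. Trav7-2 was at 0 in both libraries beside 656 and 391 counts of Trav7d-2, whose authors' posterior SD was 121 and 62.4 counts, and Trav7-2 has no window of its own. The second set of counts listed 23 and 14 for Trav7-2 and did not list Trav7d-2. Which of these copies was used can thus not be read from the counts. Trav7d-5 and Trav7n-5, identical over their last 250 bases, were given 83.8 counts each in library 1 and 8.48 each in library 2.

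When V segments joined by at least 98% identity were summed, 84 sets remained, 49 with 1 segment and 35 with several. Of 67 sets with at least 10 counts, 24 were called higher in library 2 and 18 higher in library 1, and 22 were called at 2-fold or more. That was 62.7% called, where 70.3% of all genes tested were called and 39.3% were called at 2-fold or more. Trav7-4 with its copies had the largest share in both libraries (889 and 443 counts). Trav7d-2 with Trav7-2 (656 and 391 counts) came second in library 1, and Trav14n-3 with Trav14-3 (283 and 422 counts) in library 2.

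Trav8n-2 had 6.77 counts in library 1 and 105 in library 2 and thus differed 17.4-fold per library size (log2 ratio 4.12, adjusted p = 1.61e-26, exact binomial test), the largest among members with at least 100 counts. Of its 359 windows, 258 were its own, and the second set of counts gave 4 and 72. Trav8d-2 (20.1 and 48.8 counts) and Trav8-2 (15.4 and 48.2) were also higher in library 2, by 2.89-fold and 3.71-fold. In the expected counts all 3 were higher in library 2, with the n copy by far the most. The second set gave 17 and 28 for Trav8d-2, which was not called there (adjusted p = 0.087, exact binomial test), and did not list Trav8-2.

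Across all members, 142 had at least 10 counts, and 34 of them were called higher in library 2, 30 higher in library 1 and 78 in neither direction. The called share was 45.1%, against 70.3% of all 24253 genes tested. With TMM factors the split was 28 higher in library 2 and 39 higher in library 1, and with DESeq2 size factors it was 28 and 43, since these scalings shift every log2 ratio by -0.11 and -0.14. The shares of all genes called under these scalings are not given here, so no lean of the members can be read from these splits. The median log2 ratio of the tested members was -0.07, against 0.23 over all genes tested, and the median size of the ratio was 0.67 against 0.69. V segments with at least 100 and under 1000 counts were called in 30 of 57 cases, 15 in each direction, against 70.4% of all genes of that count. Read against this background, calls among the members were not more frequent than among genes of the whole table.

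Of the 32 members called with at least 100 counts, 15 were higher in library 2 and 17 in library 1. Among V segments with at least 100 and under 1000 counts, 52.6% were called, against 70.4% of all genes of that count. After Trav8n-2, Trav13n-1 had 23.4 and 76.9 counts (log2 ratio 1.97), but only 50 of its 282 windows were its own. Its copy Trav13d-1 had 52.7 and 26.7, and the pair summed was 1.64-fold higher in library 2. Trav21-dv12, which shares no window with another gene, rose from 47 to 144 counts (3.67-fold, log2 ratio 1.88, adjusted p = 3.62e-16). The second set of counts gave nearly the same values for it, 47 and 129. Trav6-5 (39.1 and 85.5 counts, log2 ratio 1.39) and Trav14n-3 (149 and 310.2 counts, log2 ratio 1.33) were also higher in library 2. Summed with their near copies they were 2.91-fold and 1.80-fold higher.

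In the other direction Trav7n-4 fell from 219 to 27.0 counts (6.61-fold, log2 ratio -2.73, adjusted p = 5.94e-30), while Trav7-4 and Trav7d-4, which differ from it at 1 of the last 120 bases, fell less (log2 ratios -0.39 and -0.57). The 3 summed were 1.66-fold lower. The second set gave 75 and 10 counts for Trav7n-4. Trav14-1 fell from 264 to 71.3 counts (3.06-fold, log2 ratio -1.61). Most of its windows were its own, 333 of 350, and the second set gave 184 and 67. Trav16d-dv11 (88.4 and 24.7 counts, log2 ratio -1.55), Trav16n (181 and 54.9 counts, -1.44) and Trav10 (290.2 and 93.2 counts, -1.36) were lower in library 2 too. Summed with their near copies, the Trav16 segments were 1.89-fold and the Trav10 segments 1.81-fold lower. Within these sets Trav10d went the other way, with 26.6 and 69.4 counts, and was called higher in library 2. Trav16 had 46.0 and 58.4 counts and was not called. Each of the V segments named in this and the preceding paragraph kept its direction under TMM and DESeq2 scaling. Among these segments only Trav21-dv12 shared no window with another gene, and it was also called higher in library 2 in the second set, which comes from the same libraries. Trav14n-3, Trav7n-4, Trav14-1, Trav16d-dv11, Trav16n and Trav10 share some windows and were called in the same direction there. Trav13n-1 was not listed there, and Trav6-5, with 0 and 7 counts, was too low to be tested. The source of these differences within the biosample was not tested.

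**Figure D3:**
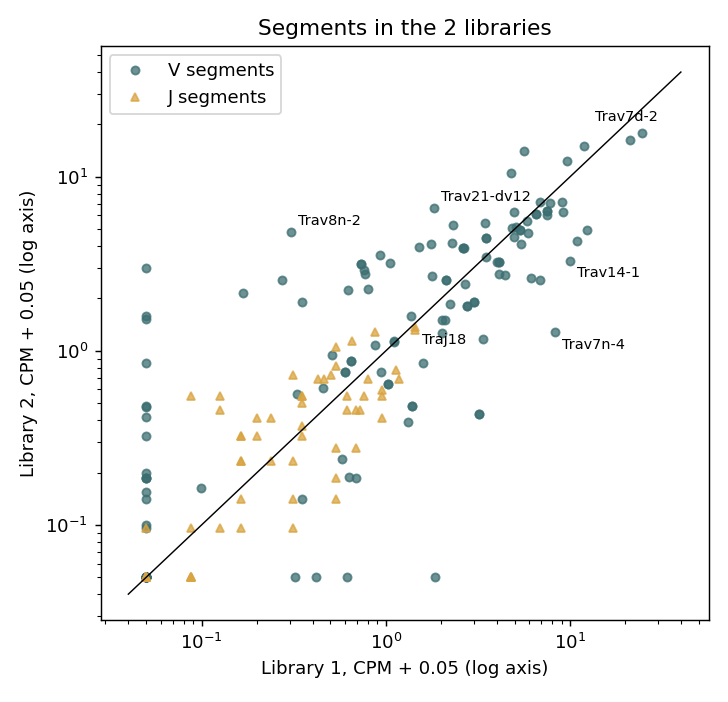
Each V segment (circle) and J segment (triangle) by its CPM in library 1 (x) and library 2 (y), both plus 0.05 and on log axes, with the line of equal CPM. Trav8n-2 lies far above the line and Trav7n-4 far below it, and J segments lie at lower CPM than most V segments.

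The second set of counts, made by the authors from genome alignments with GENCODE M4, listed 100 of the members, 99 V segments and Trac, and no J segment. Of 58 tested there, 13 were called higher in library 2 and 10 higher in library 1, against 54.3% of all 14432 genes tested. Among 32 members called in the first set and tested in the second, 22 were called in the same direction, and Trav6-3 and Trac had the opposite sign. The matching share over all genes was not computed, and both sets come from the same libraries, so they are not independent. V segments with unshared windows had similar counts in both sets, such as Trav17 with 130 and 98 in the first and 127 and 105 in the second. Trac did not, with 36905 and 29736 in the first and 1288 and 1247 in the second. Other abundant genes showed the same gap, such as Cd3e with 26840 and 20310 against 1264 and 1232. Levels of Trac and of V segments can therefore not be set against each other in the second set, and the reason for the gap was not tested.

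Along the locus, V segments were split by rank of distance from Trac into 3 groups. The 42 nearest, from Trav7-4 to Trav23 at 759 to 243 kb, held 47.0% of V counts in library 1 (46.0 to 48.0) and 45.4% in library 2 (44.3 to 46.5). The 43 in the middle held 28.6% and 28.1%, and the 43 farthest, from Trav1 to Trav8d-2, held 24.4% (23.5 to 25.3) and 26.5% (25.6 to 27.5). The farthest group includes the 656 and 391 counts of Trav7d-2. Of its 288 windows 287 are shared, and its closest copy, Trav7-2, lies in the middle group. The intervals do not take in this placement of reads between copies. The median V segment of the nearest group had 64.8 and 85.3 counts, against 19.2 and 33.7 in the farthest. Among V segments with no copy of at least 98% identity, the nearest group held 72.5% when averaged over the libraries. It also held 27 of the 50 such segments, against 42 of all 128 V segments. Across all 128 segments the rank correlation of counts with distance was weak (Spearman's rho -0.17 and -0.13), as levels of neighbouring segments varied widely.

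Of the V segments from Trav1 to Trav6-2, at the far end of the locus, 5 were called higher in library 2. Trav5-1 had 8 and 41 counts, with 12 and 36 in the second set. Trav6-1 had 19 and 63.2 counts (16 and 69 in the second set). Trav6-2 had 0 and 33.7 counts, at least 13.5-fold higher in library 2 with 3 counts in place of 0, and 0 and 28 in the second set. Trav3-1 had 19.2 and 59.6 counts, but 13 and 21 in the second set, where it was not called (adjusted p = 0.139, exact binomial test). Trav7-1 (3.13 and 46.2) had the same direction, whereas Trav2 had 17 and 3 counts and Trav1 had 28 and 24. Over the farthest group, 13 of 35 tested segments were called higher in library 2 and 7 higher in library 1, beside 46.4% and 23.9% of all genes. The segments of this paragraph were chosen after their values were seen.

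**Figure D4:**
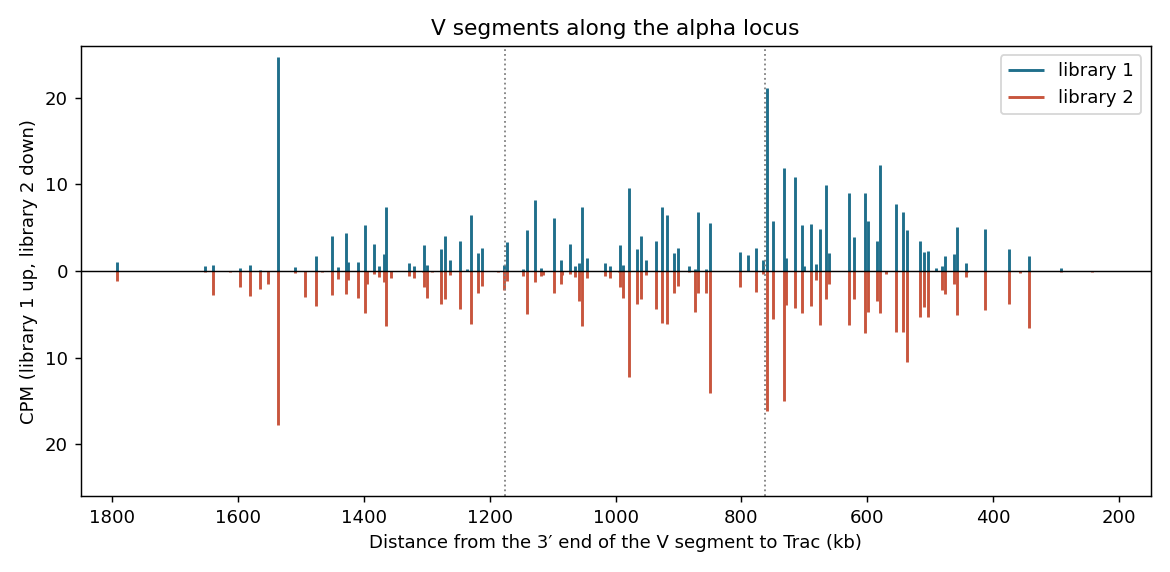
CPM of each V segment in library 1 (upward) and library 2 (downward) against the distance from its 3′ end to the start of Trac (kb, locus order from left to right), with dotted lines between the 3 groups of segments. The tallest bar of both libraries is Trav7d-2 at 1536 kb, which shares nearly all its windows and whose closest copy is Trav7-2 at 829 kb. The 42 segments from 759 to 243 kb hold 47.0% of V counts in library 1 and 45.4% in library 2.

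J segments lie in a stretch of 65.4 to 1.68 kb before Trac. Traj18 had 37 counts in library 1 and 29 in library 2, 6.40% and 6.05% of J counts, and a TPM of 128 ± 3.83 (SD, n = 2). Traj27 had 37 and 28 counts and, at 10 positions, the highest TPM of a J segment, 215 ± 11.7. Both segments led in both libraries. Traj22 (22 and 27 counts), Traj37 (29 and 16) and Traj17 (30 and 14) came next, and Traj49 (16 and 24), Traj23 (13 and 22), Traj21 (24 and 12), Traj48 (24 and 11) and Traj28 (20 and 14) completed the 10 with the highest mean CPM. None of these 10 was called different between the libraries, with adjusted p from 0.0587 for Traj23 to 0.925 for Traj18 in the exact binomial test. At counts of this size the order among them cannot be resolved. The 10 J segments with the most counts took 46.0% of J counts in library 1 and 43.2% in library 2, with 4 in common.

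**Figure D5:**
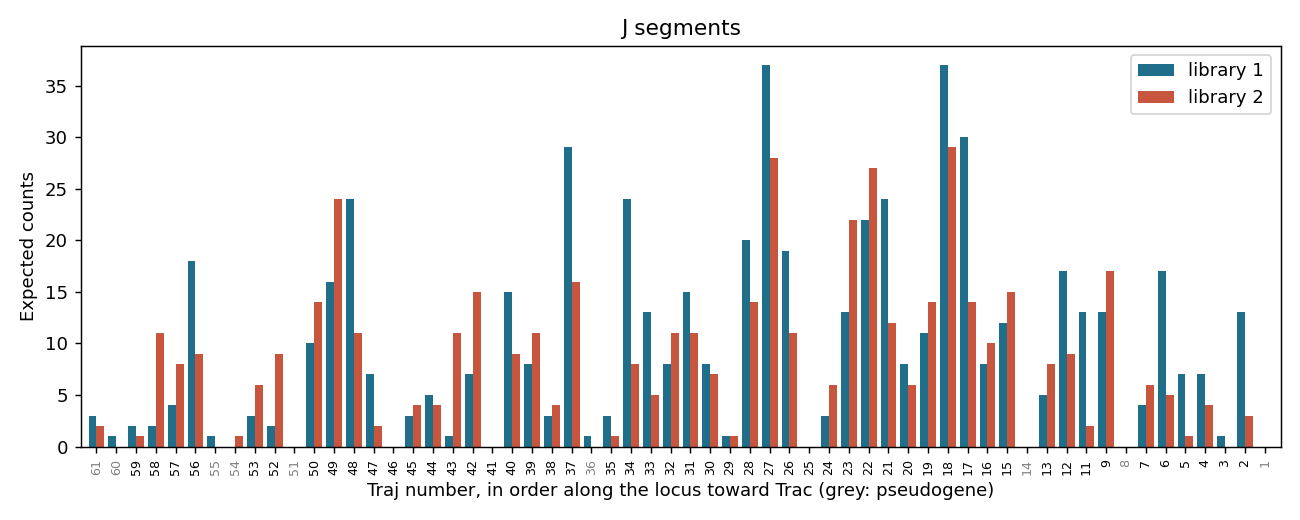
Expected counts (linear axis from 0) of each J segment in library 1 and library 2, in locus order toward Trac, with pseudogenes in grey labels. Traj27 and Traj18 are tallest in library 1 with 37 counts each, pseudogenes have at most 3 counts, and bars of the libraries differ in height at many positions.

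Of 37 J segments with at least 10 counts, 4 were called higher in library 2, 2 higher in library 1 and 31 in neither direction. That was 16.2%, where 68.7% of all genes with at least 10 and under 100 counts were called. The median size of their log2 ratio was 0.71, against 2.37 for all genes of that count and 1.58 for V segments of that count. Called higher in library 2 were Traj58 (2 and 11 counts), Traj52 (2 and 9), Traj43 (1 and 11) and Traj42 (7 and 15). Called higher in library 1 were Traj34 (24 and 8) and Traj11 (13 and 2).

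The 4 J segments called higher in library 2 all lie in the group farthest from Trac. They were 4 of the 9 segments tested in that group (44.4%), where 46.4% of all genes tested were called higher in library 2. Of 11650 genes with at least 10 and under 100 counts, 6551 were called higher in library 2. This group of 20, Traj61 to Traj42, held 18.9% of J counts in library 1 (15.9 to 22.2) and 27.6% in library 2 (23.7 to 31.7), intervals that do not overlap. The middle group, Traj41 to Traj22, held 41.9% (37.9 to 45.9) and 40.1% (35.8 to 44.5). The group nearest Trac held 39.3% (35.4 to 43.3) and 32.4% (28.3 to 36.7). The intervals of the middle and nearest groups overlapped between the libraries, which does not show that the shares are equal.

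The J segments at 0 in both libraries were Traj51, Traj46, Traj41, Traj25, Traj14, Traj8 and Traj1. Traj51, Traj14, Traj8 and Traj1 are pseudogenes shorter than 50 bases with no position for a 50-base window, so they could not receive a count. Traj41 had 6 positions, Traj25 had 8 and Traj46 had 14. For these 3 a count of 0 allows up to 0.519% of J counts in library 1 and 0.626% in library 2. Segments of equal length reached higher levels, such as Traj21, also with 8 positions, with 24 and 12 counts. The 9 J pseudogenes together held 6 and 3 counts.

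The labelled segments of invariant receptors were read singly. NKT cells carry Trav11 joined to Traj18, and MAIT cells carry Trav1 joined to Traj33. Trav11 had 15 counts in library 1 and 0 in library 2, Trav11d had 0 and 32.7, and Trav11n had 0 and 9.33. Neither Trav11 nor Trav11d has a window of its own, so their sum was read, 15 and 32.7 counts (2.58-fold higher in library 2, log2 ratio 1.37, adjusted p = 0.00222, exact binomial test). The second set of counts listed both at 0 in each library. It did the same for other segments without a window of their own, such as Trav4d-4 and Trav4n-4, which had 172 counts each in library 1 of the first set. It therefore gives no reading of this difference. Traj18 had similar shares in both libraries. Trav1 had 28 and 24 counts and Traj33 had 13 and 5 (adjusted p = 0.201). Zbtb16, the transcription factor of both innate-like lineages, had 23 and 66 counts (TPM 0.270 and 0.960), and Klrb1c, an NK receptor, had 148 and 99.2. Which V was joined to which J cannot be read from gene counts, and in bulk RNA fewer cells of a type and less RNA per cell cannot be told apart.

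The partners of the alpha chain were abundant. Trbc2 and Trbc1, the beta constant regions, had a TPM of 3571 ± 139 and 1782 ± 129 (SD, n = 2). The CD3 chains that carry the signal had 1163 ± 3.12 (Cd3g), 1084 ± 54.4 (Cd3e), 605 ± 16.7 (Cd3d) and 253 ± 8.92 (Cd247). Ptcra, which replaces the alpha chain in immature thymocytes, had 1.02 and 9 counts. Of these 7 genes, Cd3d, Trbc1 and Ptcra were called higher in library 2 and Cd3e and Trbc2 higher in library 1, beside 70.3% of all genes tested called in either direction. For Cd3d the ratio changed sign under TMM and DESeq2 scaling, and for Trbc1 under DESeq2 scaling.

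Of 12 genes of recombination and end joining, 9 were detected, and of 11 tested, 5 were called higher in library 2 and 2 higher in library 1, beside 46.4% and 23.9% of all genes tested. The recombinase gene Rag2 had 0 counts in both libraries, and Rag1 had 0 in library 1 and 24 in library 2, a TPM of 0.270. Dntt, which adds bases at the junctions, had 74 and 26 counts. The end joining genes ranged from a TPM of 2.92 ± 1.42 for Lig4 and 5.04 ± 2.21 for Nhej1 to 62.5 ± 1.36 for Xrcc6, with 34.5 ± 1.15 for Xrcc5, 25.5 ± 5.93 for Polm and 23.4 ± 1.30 for Prkdc. Both recombinase genes were under a TPM of 1 in both libraries.

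The cell type label was checked on markers. All 5 T cell markers (Cd3d, Cd3e, Cd3g, Cd4, Lck) and all 4 regulatory T cell markers were detected, with a TPM of 87.3 ± 0.0849 for Foxp3. Of the 4, Ikzf2 (1.22-fold), Ctla4 (1.30-fold) and Foxp3 (1.06-fold, adjusted p = 0.0329, exact binomial test) were called higher in library 1 by their counts, and Il2ra was not called. Markers of other cells differed between the libraries in which segments also differed, and their part in any result was not tested. The 5 erythroid genes summed to 8488 TPM in library 1 and 94.7 TPM in library 2, all 5 detected and called higher in library 1. The 4 B cell markers, all detected, summed to 154 and 110.1 and were all called higher in library 1. Of 6 macrophage markers 5 were detected, with sums of 32.8 and 62.4 and C1qc at 0 in library 1. Of these, 5 were called higher in library 2, and Lyz2 was called higher in library 1 with 500 and 64 counts. CD8 T cell markers summed to 27.0 and 13.5, with 1 of 2 detected, and both were called higher in library 1. Gamma delta T cell markers summed to 30.8 and 46.8, with 4 of 5 detected and Sox13 at 0 in library 1. Tcrg-C1 was called higher in library 2 (164 and 417 counts) and Tcrg-C4 higher in library 1 (153 and 38 counts). Of 4 thymocyte markers none was detected, with sums of 2.27 and 1.77 and Rag2 at 0. Of these other cells, CD8 T cells and later thymocytes also carry alpha chains.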

How the data were processed

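The authors deposited, for each library, a gene table with each gene's expected count, TPM, FPKM and posterior SD of the count, per the file headers, and a transcript table with the percent of a gene's TPM in each transcript. The deposited description says that both were made from transcriptome alignments with GENCODE M21 on mm10. A second gene table held whole-number counts that the authors made from genome alignments with GENCODE M4, again on mm10. For the aligner, counter, read length and strand setting, the sources used here give nothing. In what follows, symbols, gene types and positions came from the GENCODE M21 annotation, and segment sequences from its transcripts.

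Each gene with 10 or more rounded expected counts was tested against the ratio of the library totals (exact binomial test, 2-sided). P-values were adjusted over the whole table by Benjamini-Hochberg, and adjusted values below 0.05 were called. Ratios are library 2 over library 1 after adding 0.5 counts, and bounds against 0 use 3 counts per library. Intervals are 95% Wilson intervals. On simulated counts for 55536 genes the test recovered 91 of 100 genes changed 1.5-fold and 99 of 100 changed 2-fold, and called 8 unchanged genes. The simulation held counting error alone, and its changed genes averaged at least 100 counts per library. It thus gives neither the error rate in these libraries nor the recovery of segments with fewer counts. Tools were Python 3.11.15 with SciPy 1.17.1 and, for scaling factors, edgeR 4.0.16 and DESeq2 1.42.0 in R 4.3.3. Windows of 50 bases of each member were searched in all GENCODE M21 transcripts.

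The members, lists and tests were chosen with earlier results of these data known. The genes named were Trac, the 10 V segments with the highest mean TPM, the 10 J segments with the highest and the 5 with the lowest mean CPM, up to 5 members in each direction with the largest ratio among those called with at least 100 counts, Trav11, Traj18, Trav1 and Traj33, and members of the fixed lists that a result turned on. Others were chosen after their values were seen. Recombination signal heptamers and splice sites were not analysed here, because no genome sequence was used. Sequences are shown for a few members only.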

Additional observations from a re-analysis of the deposited data

How the results depend on the processing

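The library comparison gave 64 called members with library totals, and between 46 and 71 with TMM or DESeq2 scaling, no count filter, at least 50 counts, a pseudocount of 1 or V copies of at least 98% identity summed, the last an alternative chosen after seeing the data. It gave 22 with V segments summed by family and 23 in the second set of counts, where fewer items were tested. The share of all genes called is given here only for library totals (70.3%) and for the second set (54.3%). Of the 42 ratios of Trac and of the V segments with the largest ratios recomputed under other settings, 41 kept their direction and their side of the threshold, and the ratio of Trac in the second set of counts, 0.14, reversed; the cause was not tested. Detection covered 141 members, 151 without replicate 1 and 152 without replicate 2, 146 at a TPM of 0.1, 112 at a TPM of 5, 138 by FPKM and 99 at 10 counts in both. The level of Trac was 1812 in FPKM, and 2903 without replicate 1 to 2957 without replicate 2 in TPM. By TPM in place of counts the class shares were 23.5% for V, 39.1% for J and 37.4% for C, because segment length is divided out; leaving out a library gave 20.5% to 20.7%, 1.23% to 1.26% and 78.0% to 78.2% of counts. The V segments nearest Trac held 44.2% by TPM and 72.5% without near copies, and 45.4% to 47.0% with a library left out. The J segments nearest Trac held 32.4% to 39.3% with a library left out. No paired analysis was possible because the labels give 1 group. J counts of at most 37 per library limit the resolution of single J segments.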

Other observations

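V segments of the alpha locus that carry a delta name, and can be used by either chain, were 10 in number and held 591 counts in library 1 and 700.1 in library 2. Of 9 tested, 4 were called higher in library 2 and 2 higher in library 1, beside 46.4% and 23.9% of all genes tested. Among the 4 was Trav15d-1-dv6d-1 (0 and 17.6 counts), whose last 250 bases are identical to those of Trav15n-1, which has no delta name. Summed, this pair had 40.8 and 35.2 counts and was not called (adjusted p = 0.931, exact binomial test). Trav15d-2-dv6d-2, called higher in library 1, was given the same counts as its identical copy Trav15n-2. Sums and calls of the delta-named segments thus depend on how reads were placed between copies. Trav21-dv12 and Trav4-4-dv10 gave most of the excess in library 2. The delta constant region Trdc, which lies between the V and J segments of the alpha locus, had 148 and 123 counts, a TPM of 2.34 and 2.38, against 2957 and 2903 for Trac. Delta J and D segments had 0 counts in both libraries. Delta V segments outside the members held 72.9 and 139 counts, led by Trdv1 with 56 and 77 and Trdv2-2 with 14.9 and 51. Dad1, the gene that follows Trac on the chromosome, had a TPM of 384 ± 38.6 (SD, n = 2) and was 1.18-fold lower in library 2 (adjusted p = 8.57e-15, exact binomial test).

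V segments without a copy letter held 4854 and 3952 counts over 55 segments, those with d 2490.5 and 1966 over 39, and those with n 2340.5 and 1969 over 34. For their size, the sums of the d and n copies differed less from each other than some single copies did. Trav7d-4, for example, had 108 and 60.1 counts beside 219 and 27.0 for Trav7n-4. Several d and n copies without a window of their own were given equal counts, such as Trav14d-1 and Trav14n-1 with 198 and 139 each. The sums are therefore not independent measures of copy use.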
